A study of Homo sapiens with 4 samples.

Results

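The mRNAs of the nuclear-encoded subunits of the mitochondrial respiratory chain and ATP synthase were compared between THP-1 cells given an antisense oligonucleotide (ASO) against the long noncoding RNA SGOL1-AS1 and THP-1 cells given a non-targeting ASO. Members were chosen by symbol among protein-coding genes: NDUFA, NDUFB, NDUFC, NDUFS and NDUFV for complex I, SDHA to SDHD for complex II, UQCR and CYC1 for complex III, COX4I to COX8 for complex IV and ATP5 for complex V, with the NDUFAF assembly factors left out. NDUFA4 and NDUFA4L2 were counted with complex IV, in which NDUFA4 is a subunit. The rule gave 91 genes. Of these, 84 had a row among the 27106 genes analysed, and 79 reached the mean of 10 normalised reads required for a test, among 19398 genes tested.

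THP-1 is an established human monocytic leukaemia line, and the study asks how SGOL1-AS1 bears on survival and inflammatory signalling in acute myeloid leukaemia. Total RNA from 2 non-targeting and 2 knockdown samples, all of day 5 and of the same line with no other treatment named, was sequenced. The labels do not say that samples came from separate cultures, so a p-value here reflects spread among these samples that could be technical. The 2 knockdown columns carry a code in place of the group's name and were assigned by elimination; they are called knockdown libraries 1 and 2 in column order. The line stands for 1 leukaemia, and the labels do not give the number of ASO sequences used against SGOL1-AS1.

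Complex I takes electrons from NADH and complex II takes them from succinate, and both pass them to ubiquinone. Complex III hands them on to cytochrome c and complex IV to oxygen, and the proton gradient built by complexes I, III and IV drives ATP synthesis by complex V. Complexes I, III, IV and V combine subunits from nuclear genes with a few from the mitochondrial genome, whereas complex II is made from nuclear genes alone.

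The target itself was scarce. SGOL1-AS1, listed as SGO1-AS1, had 24 and 21 reads with the non-targeting ASO and 12 and 17 with the targeting one. Normalised, these were 23.0 and 19.8 against 11.5 and 19.4, so that knockdown library 2 lay barely below the lower non-targeting value. The log2 fold change of -0.48 ± 0.37 (SE) did not pass the test (limma, adjusted p = 0.555). SGO1, the shugoshin gene on the opposite strand, differed by 0.035 (adjusted p = 0.840), and reads in the part they share (10.3% of the exonic length of SGO1-AS1 and 17.7% of that of SGO1 overlaps another gene) cannot be told apart unless counting used strand, which is not stated. Libraries held 41435922 to 51851314 reads. All 10 monocytic markers had values, with LYZ between 36975 and 40116 normalised reads, and CD4 and FCGR1A were lower in the knockdown (log2 fold changes of -0.35 and -0.37, adjusted p = 0.000193 and 0.00118). The lowest of the 10 were CD14, at 94.7 to 110 normalised reads, and CD68, at 16.0 to 21.6, both lower than the fibroblast marker COL1A1. Of the CD68 transcript, 95.3% lies in exons of another gene on the same strand. The monocytic markers summed to 109084 and 102994 normalised reads in non-targeting cells against 104690.0 and 99533 in knockdown cells. Summed levels of 8 lymphoid markers were 149 and 140.2 against 149.6 and 155, with CD3D, CD3E and MS4A1 not analysed here. The only erythroid or megakaryocytic marker of 7 with a row was ITGA2B, and of 8 epithelial and fibroblast markers COL1A1, KRT8 and KRT18 had rows, led by COL1A1 at 176 to 188 normalised reads. In bulk RNA, fewer cells of a type and less RNA per cell cannot be told apart.

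Subunit mRNAs were almost level between the groups. Of the 79 members tested, 1 rose in the knockdown, ATP5MF of complex V, and none fell (limma, Benjamini-Hochberg adjusted p under 0.05). Over all genes tested, 4.25% were called by the same rule, 0.851% higher and 3.4% lower, and neither count of members stands out from that background. edgeR and DESeq2 each called 1 member higher and 0 lower, beside 3.69% of all genes by edgeR (0.82% higher, 2.87% lower) and 2.3% by DESeq2 (0.345% and 1.96%). At an unadjusted p under 0.05 there were 4 members higher and 5 lower, beside 6.17% and 11% of all genes (17.2% in both directions). Knockdown libraries lay above both non-targeting libraries for 14 members and below both for 16, a non-overlapping share of 38.0% beside 46.7% of all genes (21.6% above and 25.1% below).

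Members differed little in size as well. The median log2 fold change was -0.0067, beside -0.0098 over all genes, and the values ran from -0.20 for ATP5F1D to 0.37 for NDUFA7. Of the 79 members, 57 (72.2%) lay within 0.1 of 0 on the log2 scale, against 45.2% of all genes. Part of that gap goes with abundance: among genes with a mean of at least 1000 normalised reads the share was 68.4%, and among the 64 members that abundant it was 78.1%. The 95% interval stayed within a fold of 1.5 for 78 members, the exception being NDUFA7, compared with 65.1% of all genes and 99.2% of the abundant ones. The sign of the median depended on the scaling of the libraries: over 5 scalings 35 members were positive in every one, 22 were negative in every one, and 22 took both signs, while the median of all genes moved from -0.0098 to 0.047.

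**Figure D1:**
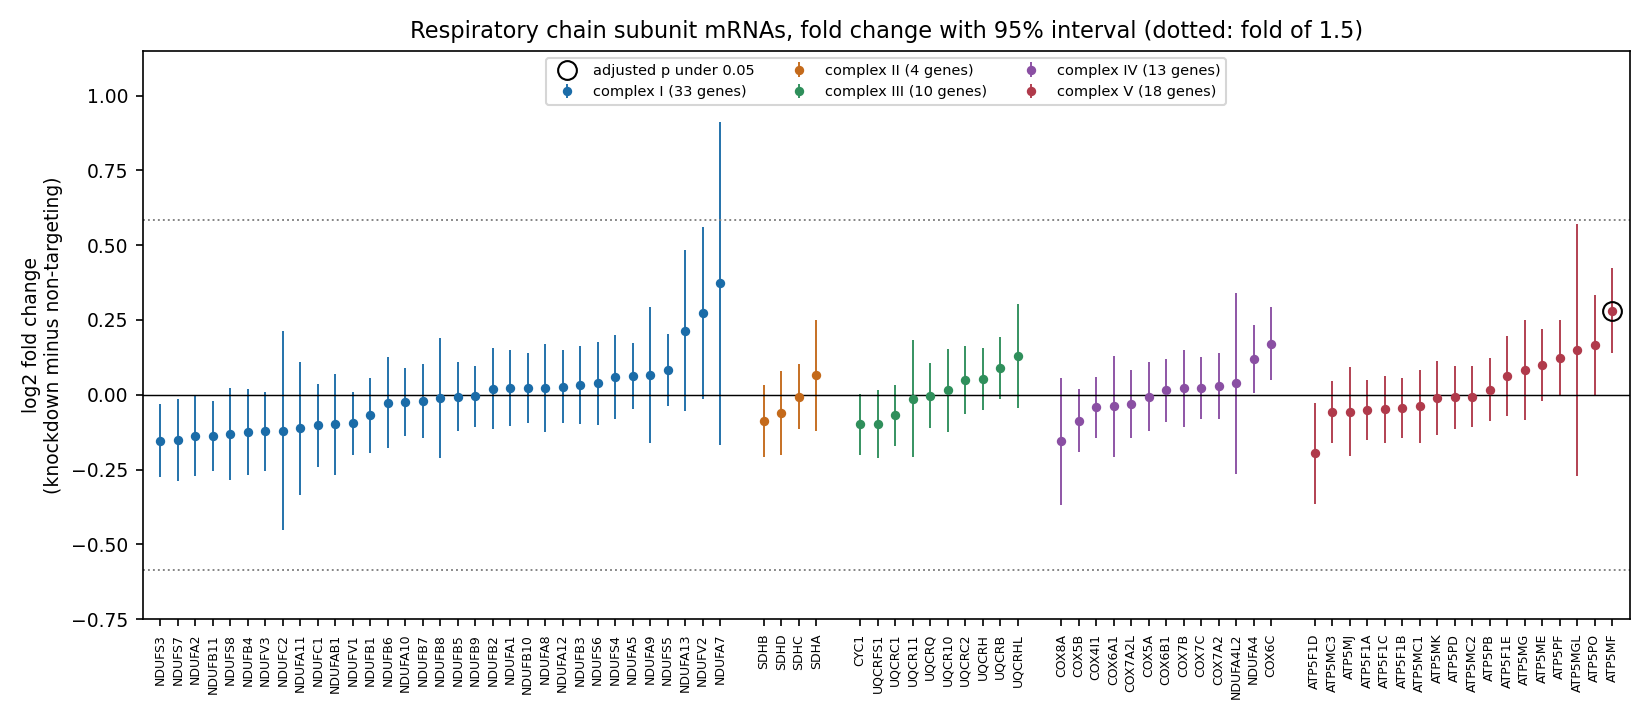
Log2 fold change (knockdown minus non-targeting, vertical axis) of 78 of the 79 tested subunit mRNAs, grouped by complex and sorted by value, with 95% intervals as vertical lines, dotted lines at a fold of 1.5 and a ring around the member with an adjusted p under 0.05. Most points sit within 0.1 of 0 and the only ring is around ATP5MF at 0.28.

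Summed over its members, each complex differed by a few percent at most. Complex I subunits summed to 90243 and 91687 normalised reads in non-targeting cells and to 88789.7 and 88825 in knockdown cells, a ratio of means of 0.976. Both knockdown sums lay below both non-targeting sums. Complex II gave 9671 and 9909 against 9505 and 9616, a ratio of 0.976, again with both knockdown sums lower. Complex III gave 66136 and 66082 against 65288 and 65918, a ratio of 0.992, also with both knockdown sums lower. For complex IV the sums were 72289 and 72752 against 71422 and 73448, a ratio of 0.999 with overlapping groups. Complex V, the most abundant, gave 139446 and 142097 against 136880.0 and 139075, a ratio of 0.980, with both knockdown sums lower as well. The same ratio over all genes tested was 0.961, again with both knockdown sums below both non-targeting sums. Every complex thus lay closer to 1 than the table as a whole, and no test was made of the sums. As a share of each library's reads, members made up 0.774% and 0.784% without the knockdown and 0.799% and 0.798% with it, where the order of the groups is the other way round from the normalised sums.

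**Figure D2:**
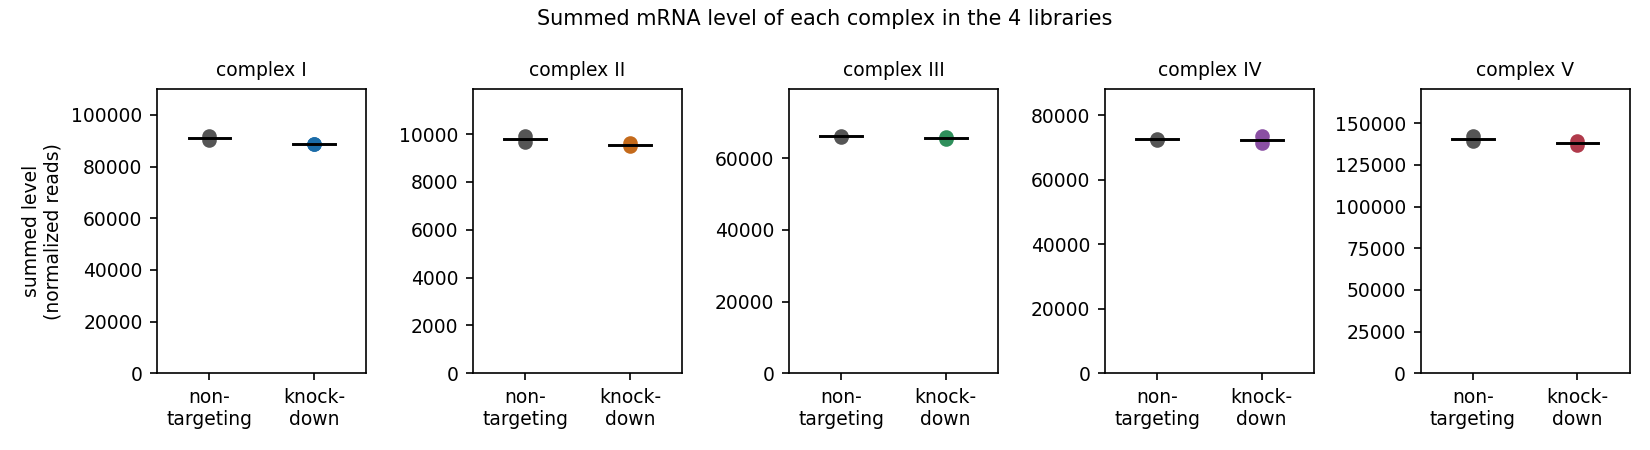
Summed normalised reads of the members of each complex (vertical axes from 0, one panel per complex), with 1 point per library and a line at the mean of each group. The points of the groups lie almost on a level, with ratios of means from 0.976 for complexes I and II to 0.999 for complex IV.

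Levels set per kilobase of the representative transcript spanned a wide range within each complex. ATP5F1B, the catalytic beta subunit of ATP synthase, was the highest at 23502 normalised reads per kilobase in the non-targeting libraries, followed by UQCRH, the hinge protein of complex III, at 20444 and COX4I1, the common form of a regulatory complex IV subunit, at 20232. Complex I was led by NDUFB9 at 13367, and complex II by SDHB, its iron-sulphur subunit, at 2303. The lowest tested members were NDUFA9 at 42.0 in complex I, SDHA at 210.0, UQCRHL at 329, NDUFA4L2 at 121 and ATP5MGL at 84.0. SDHA, the flavoprotein that pairs with SDHB in the finished enzyme, thus had a far lower read density than its partner.

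Several of the low values belong to genes whose exons are shared with a neighbour. In the GENCODE 29 annotation, 17 of the 84 members have at least 15% of their representative transcript inside exons of another gene on the same strand. Their median level was 751 normalised reads per kilobase in the non-targeting libraries, and 8 of them lay under 500. Among the 67 other members the median was 2783 and 10 lay under 500. NDUFV2 shares 82.9% of its transcript and stood at 170.3, NDUFA7 shares 75.9% and stood at 60.2, and NDUFA13 shares 44.1% and stood at 186. The 10 members that reach 15% only when the opposite strand is counted had a median of 2665. Of these, 1 lay under 500, NDUFA3 at 6.91. How reads in shared exons were counted is not given in the sources used here, so the levels of these members are uncertain. Exon sharing is not the only mark of a low value. NDUFS1, which codes for the largest core subunit of complex I, shares 3.31%. It is listed at 0 in 3 libraries and at 3 reads in knockdown library 1. SDHA shares none and has 4 annotated pseudogenes, with processed and unprocessed types counted together. Every gene with a row has at least 2 reads in knockdown library 1, so NDUFS1 could be listed only with reads there. The median log2 fold change was -0.012 for the 15 tested members with sharing and -0.0061 for the 64 without.

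**Figure D3:**
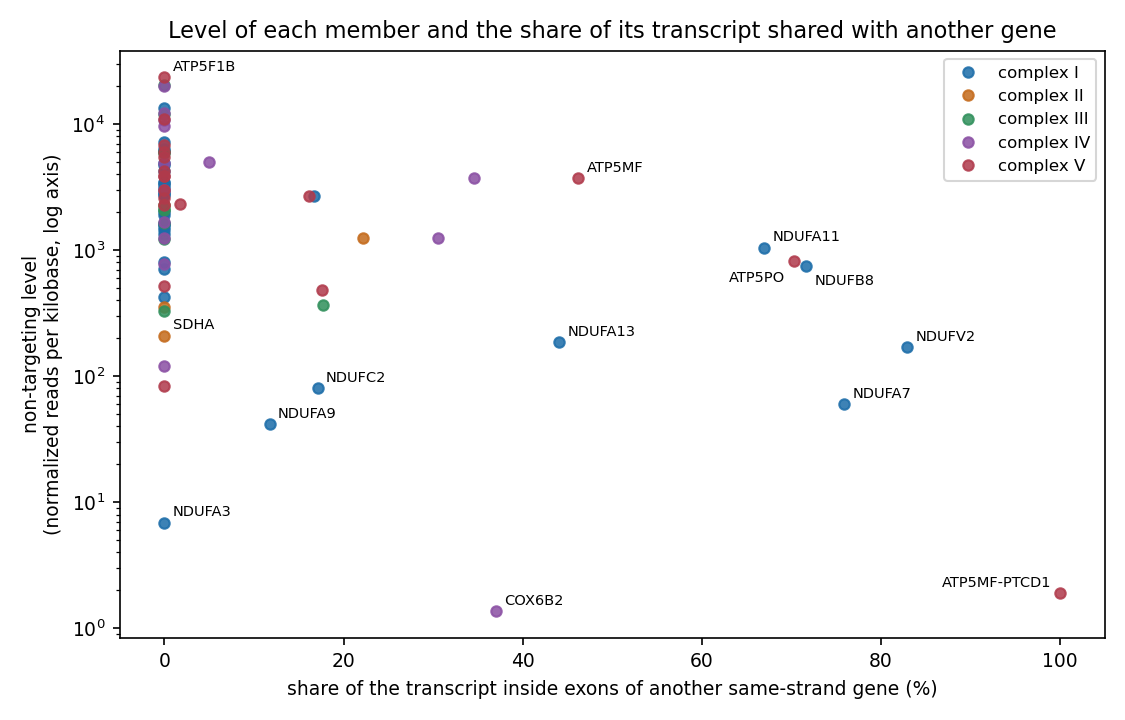
Mean non-targeting level of the members (normalised reads per kilobase, log axis) against the share of its representative transcript that lies inside exons of another gene on the same strand (percent), coloured by complex. NDUFS1 and COX7A1, at 0 in the non-targeting libraries, and 1 further member are not drawn; members with large shares, such as NDUFV2 and NDUFA7, lie low, while ATP5MF with 46.2% does not.

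Near-identical copies set another limit on single members, and their coding sequences show how much of a read can tell them apart. UQCRH (chr1:46303631-46316776, plus strand) and UQCRHL (chr1:15807169-15809348, minus strand) have coding regions of 273 bases that differ at 4 positions, with a longest identical run of 157 bases. Coding bases 144 to 233 of each, from GENCODE 29 on GRCh38, hold all 4 differences, which are in capitals.
UQCRH: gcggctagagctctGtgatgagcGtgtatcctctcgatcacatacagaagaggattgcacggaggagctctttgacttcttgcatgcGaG
UQCRHL: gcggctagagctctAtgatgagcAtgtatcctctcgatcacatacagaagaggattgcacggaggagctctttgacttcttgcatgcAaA
The genes of the ATP synthase c ring are farther apart. ATP5MC1 (chr17:48892765-48895871), ATP5MC2 (chr12:53632726-53677408) and ATP5MC3 (chr2:175176258-175184607) code for the same mature subunit behind different import peptides. Over the last 225 coding bases ATP5MC1 and ATP5MC2 differ at 25 positions (88.9% identity), and ATP5MC3 differs from each of them at 42 (81.3%). The stretch below runs over 90 bases of that region, with the 19 positions at which any pair differs in capitals.
ATP5MC1: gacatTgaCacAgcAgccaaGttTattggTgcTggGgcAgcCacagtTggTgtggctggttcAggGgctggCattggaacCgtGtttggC
ATP5MC2: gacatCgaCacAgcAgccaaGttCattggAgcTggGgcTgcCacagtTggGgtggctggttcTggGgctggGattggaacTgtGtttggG
ATP5MC3: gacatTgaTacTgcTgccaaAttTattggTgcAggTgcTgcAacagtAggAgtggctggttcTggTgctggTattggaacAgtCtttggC
The longest identical run was 17 bases between ATP5MC2 and either of the others. In the coding region, 4 positions tell UQCRH and UQCRHL apart, the rest of their transcripts was not compared, and the split of reads between them is uncertain.

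In complex I no subunit passed the test in either direction among the 34 tested (limma, 4 with an unadjusted p under 0.05, all lower; 0 by edgeR and DESeq2). The core subunits of the matrix arm, most of which carry electrons, fall in an NADH-oxidising arm, NDUFV1, NDUFV2 and NDUFS1, and a ubiquinone-reducing arm, from which NDUFS3, NDUFS7 and NDUFS8 are described here. These 3 had negative log2 fold changes under each of the 5 scalings, but that of NDUFS8 turned positive without knockdown library 2. NDUFS3, which sits in the stalk near the quinone site, had 2610.2 and 2722 normalised reads with the non-targeting ASO and 2378 and 2416 in the knockdown. Both knockdown values lay below both non-targeting values, with a log2 fold change of -0.15 ± 0.059 (SE), a 95% interval from -0.27 to -0.032 and an adjusted p of 0.160. NDUFS7, which holds the last iron-sulphur cluster before ubiquinone, had 3403 and 3379 normalised reads in non-targeting and 3323 and 2807 in knockdown cells. Only knockdown library 2 stood well apart there, and the log2 fold change of -0.15 (adjusted p = 0.235) was -0.029 without that library and -0.27, with an adjusted p of 0.00234, without the other. NDUFS8 was also lowest in knockdown library 2, with 2547 and 2381 normalised reads in non-targeting cells against 2488 and 2032 after knockdown. Its groups overlapped, and the log2 fold change of -0.13 (adjusted p = 0.387) was 0.015 without that library and -0.28 without the other. After a correction of the libraries for GC content and exonic length, computed over all genes, the 3 values were -0.10 for NDUFS3, -0.047 for NDUFS7 and -0.051 for NDUFS8.

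The NADH-oxidising arm split in direction. NDUFV1, the flavin-bearing subunit that takes electrons from NADH, had 6778 and 6881 normalised reads with the non-targeting ASO and 6383 and 6403 in the knockdown. The groups did not overlap, with a log2 fold change of -0.10 (adjusted p = 0.346), which the correction for GC content and length brought to -0.00016. NDUFV2, its iron-sulphur partner, had 168 and 149 normalised reads in non-targeting and 200.4 and 182 in knockdown cells, all on the opposite side, with a log2 fold change of 0.27 ± 0.14 (SE, adjusted p = 0.318). Both genes are among the members whose exons are shared, NDUFV1 with 16.7% of its transcript and NDUFV2 with 82.9%. The value of NDUFV2 thus rests on the smaller part of its transcript or on reads assigned in another way.

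Among the 28 tested supernumerary subunits of complex I, 13 log2 fold changes were positive and 15 negative, with a median of -0.0055. The lowest were NDUFA2 at -0.14 and NDUFB11, a membrane arm subunit, at -0.14. NDUFA2, a small subunit of the matrix arm, had 1635 and 1571 normalised reads in non-targeting cells against 1456 and 1456 after knockdown, an adjusted p of 0.273, and a value of -0.17 after the GC and length correction. NDUFB11 had 3706 and 3893 normalised reads with the non-targeting ASO and 3372 and 3534 in the knockdown and an adjusted p of 0.195. In both genes the groups were apart and neither passed the test. NDUFV3, an accessory subunit at the NADH end, and NDUFB1 also lay lower in both knockdown libraries, at -0.12 and -0.069. Higher in both were NDUFA7, NDUFA13, NDUFA5 and NDUFS4, at 0.37, 0.21, 0.063 and 0.059. NDUFA7, with the largest positive value of any member, had only 42.3 and 30.1 normalised reads in non-targeting and 44.1 and 49.0 in knockdown cells, and its interval ran from -0.17 to 0.91. NDUFA13, also known as GRIM-19, had 191 and 177 normalised reads in non-targeting cells against 219.6 and 208 after knockdown (adjusted p = 0.420). The other 20 supernumerary subunits tested had overlapping groups, among them NDUFB9 at -0.0044, NDUFB5 at -0.0067, NDUFS5 at 0.082, NDUFB4 at -0.13 and NDUFAB1, the mitochondrial acyl carrier protein, at -0.10. NDUFA3 had values but was too low for a test, at 6.59 to 11.5 normalised reads, and NDUFA6 and NDUFC2-KCTD14 were not analysed here.

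Complex II, which is also the succinate dehydrogenase of the tricarboxylic acid cycle, had no member past the test among 4 (limma, 0 with an unadjusted p under 0.05; 0 by edgeR and DESeq2). SDHA, the succinate-oxidising subunit, had 509.9 and 494 normalised reads with the non-targeting ASO and 526 and 523 in the knockdown, higher in both knockdown libraries by 0.065 on the log2 scale (adjusted p = 0.778). SDHB had 2655 and 2655 normalised reads in non-targeting and 2527 and 2474 in knockdown cells, lower in both, with a log2 fold change of -0.087 (adjusted p = 0.476). The membrane anchors SDHC and SDHD had overlapping groups and log2 fold changes of -0.0071 and -0.061. For none of the 4 did the 95% interval reach beyond 0.25 or below -0.21.

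In complex III, 0 of 10 subunits passed the test (limma, 0 with an unadjusted p under 0.05; 0 by edgeR and DESeq2). The largest negative values were those of the electron-carrying subunits from nuclear genes. CYC1, cytochrome c1, had 14982 and 14706 normalised reads in non-targeting cells against 14224 and 13499 after knockdown. UQCRFS1, the Rieske iron-sulphur protein, had 4206 and 4392 normalised reads with the non-targeting ASO and 3949 and 4084 in the knockdown. In both genes the knockdown values lay below both non-targeting values, with log2 fold changes of -0.10 ± 0.049 and -0.10 ± 0.054 (SE, adjusted p = 0.304 and 0.374), and the pair summed to 0.934 of the non-targeting level. Corrected for GC content and length, CYC1 came to 0.0041 and UQCRFS1 to -0.11. The core proteins UQCRC1 and UQCRC2 went in opposite directions, at -0.068 and 0.050. The small subunits had a median of 0.033. UQCRB, the ubiquinone-binding protein, was the one of these whose groups did not overlap, with 9096 and 9230.1 normalised reads in non-targeting and 9579.5 and 9921 in knockdown cells and a log2 fold change of 0.089 (adjusted p = 0.371). UQCRQ hardly differed, with 4949 and 4970.2 normalised reads in non-targeting cells against 4948 and 4954 after knockdown. UQCRH and its copy UQCRHL differed by 0.052 and 0.13, UQCR10 by 0.015 and UQCR11 by -0.013, all with overlapping groups.

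Complex IV also had 0 of 13 subunits past the test (limma, 2 with an unadjusted p under 0.05, both higher; 0 by edgeR and DESeq2). COX6C, a small subunit with no tissue-specific form in this set, had 3225 and 3326 normalised reads with the non-targeting ASO and 3522 and 3859 in the knockdown. Both knockdown values were higher, with a log2 fold change of 0.17 ± 0.058 (SE), an interval from 0.050 to 0.29 and an adjusted p of 0.110. It passed the test when libraries were set to the same total (adjusted p = 0.0397) and without knockdown library 1 (adjusted p = 0.0109). COX6C has 17 annotated pseudogenes, processed and unprocessed types together, the most of any member. NDUFA4 had 3665 and 3518 normalised reads in non-targeting and 3829 and 3970.1 in knockdown cells and a log2 fold change of 0.12 (adjusted p = 0.269). COX8A stood at the other end, at -0.16, but with 2123 and 1694 normalised reads in non-targeting cells against 1981 and 1463 after knockdown the libraries of each group differed by more than the groups did. COX8A was 0.063 without knockdown library 2 and 0.0071 without non-targeting library 1, but -0.37 (adjusted p = 9.67e-05) without knockdown library 1 and -0.32 (adjusted p = 0.0254) without non-targeting library 2. COX5B, which binds zinc, had 7615 and 7867 normalised reads with the non-targeting ASO and 7177 and 7403 in the knockdown, lower in both knockdown libraries by -0.087 on the log2 scale (adjusted p = 0.404). The remaining common subunits had log2 fold changes of -0.042 for COX4I1, -0.0059 for COX5A, -0.039 for COX6A1, 0.015 for COX6B1, 0.030 for COX7A2, 0.021 for COX7B and 0.023 for COX7C, and only COX7C had groups that did not overlap.

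Several complex IV subunits exist as a common form and a form known from heart, muscle, lung or testis. In these cells the common form held nearly all reads. COX6B1 had 5743 to 6796 reads per library beside 2 or 3 for COX6B2, the testis form. COX7A2 had 10493 to 12194 reads beside 2 reads in knockdown library 1 and none in the other libraries for COX7A1, the heart and muscle form. Every gene with a row has at least 2 reads in knockdown library 1, so reads there alone show no difference between the groups. COX4I2, COX6A2, COX7B2 and COX8C were not analysed here. NDUFA4L2, a relative of NDUFA4 known as a target of hypoxia-inducible factor, had 128 to 156 reads beside 3481 to 3993 for NDUFA4, and its log2 fold change was 0.038 (adjusted p = 0.932). COX7A2L, which acts in joining complexes III and IV into supercomplexes, differed by -0.031.

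ATP synthase held the one called member. ATP5MF (ENSG00000241468, chr7:99448475-99466331, minus strand of GRCh38) codes for the f subunit of the membrane part and had 1145 and 1134 normalised reads in non-targeting and 1408 and 1362 in knockdown cells. The groups were far apart relative to their spread, with a mean of 1139 ± 7.81 against 1385 ± 32.6 (SD, n = 2 each). The log2 fold change was 0.28 ± 0.068 (SE), with a 95% interval from 0.14 to 0.42 and an adjusted p of 0.0176. The call was lost without non-targeting library 1 (adjusted p = 0.114), without non-targeting library 2 (adjusted p = 0.116) and without a mean-variance trend (adjusted p = 0.328), and the log2 fold change lay between 0.26 and 0.34 over all settings tried.

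ATP5MF has a neighbour that bears on its count. Of its representative transcript, 46.2% lies in exons of the read-through gene ATP5MF-PTCD1. The read-through gene had 6.72 and 2.82 normalised reads in non-targeting cells against 3.84 and 2.28 after knockdown. Annotated pseudogenes of ATP5MF, processed and unprocessed types together, number 6. PTCD1, the gene at the other end of the read-through, had 294 and 238 normalised reads with the non-targeting ASO and 241 and 245 in the knockdown and a log2 fold change of -0.12 (adjusted p = 0.680). Whether exon sharing has a part in the ATP5MF difference was not tested. Leaving out ATP5MF and the other members that share at least 15% of a transcript left 0 called in either direction among 64. That outcome was fixed beforehand, since ATP5MF was the only called member.

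**Figure D4:**
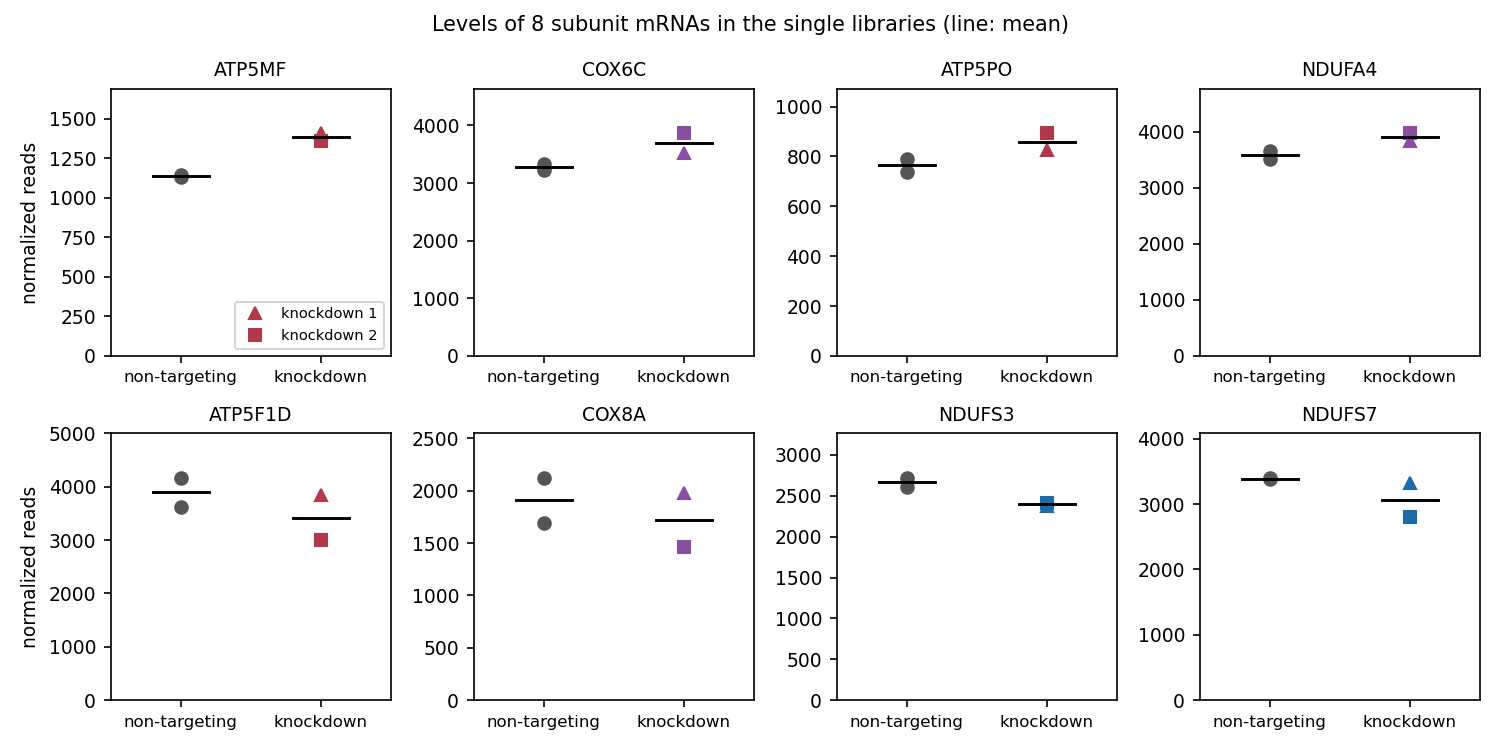
Normalised reads (vertical axes from 0) of 8 subunit mRNAs, with circles for the non-targeting libraries, a triangle for knockdown library 1, a square for knockdown library 2 and a line at each group mean. The groups are apart for ATP5MF, COX6C, ATP5PO, NDUFA4, NDUFS3 and NDUFS7, while for ATP5F1D and COX8A the square lies low and the triangle lies among the non-targeting circles.

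The other parts of ATP synthase followed no single direction. In the F1 head, which holds the catalytic sites, ATP5F1A had 34156 and 35426 normalised reads in non-targeting and 33098 and 34095 in knockdown cells and ATP5F1B had 42466 and 43975 normalised reads in non-targeting cells against 41487 and 42394 after knockdown. Their log2 fold changes of -0.050 and -0.043 (adjusted p = 0.657 and 0.716) were small, although the knockdown values lay below both non-targeting values. ATP5F1C, the gamma shaft, gave -0.049 with groups that did not overlap, and ATP5F1E gave 0.063 with groups that did. ATP5F1D, the delta subunit of the shaft, had the largest negative value of all members at -0.20 ± 0.082 (SE, adjusted p = 0.207). It had 4167 and 3626 normalised reads with the non-targeting ASO and 3837 and 2999.5 in the knockdown. Knockdown library 1 lay between the non-targeting libraries, and only knockdown library 2 lay below both. The log2 fold change was -0.019 without knockdown library 2 and -0.37 without knockdown library 1. It was -0.096 without non-targeting library 1 and -0.30 without non-targeting library 2. The GC content of its longest transcript is 63.9%, and the correction for GC content and length brought the value to -0.089.

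In the peripheral stalk, which holds the head still against the rotor, ATP5PO had 737 and 791 normalised reads in non-targeting and 824 and 892 in knockdown cells. The knockdown values were higher, with a log2 fold change of 0.17 ± 0.080 (SE, adjusted p = 0.288), and 70.3% of the transcript is shared with another gene. ATP5PF was higher in both knockdown libraries by 0.12 on the log2 scale (adjusted p = 0.315), while ATP5PB and ATP5PD gave 0.018 and -0.0082 with overlapping groups. Among the membrane subunits, ATP5ME, the e subunit, had 2499 and 2492 normalised reads in non-targeting cells against 2628 and 2722 after knockdown. Its groups were apart, with a log2 fold change of 0.10 (adjusted p = 0.399). ATP5MG, ATP5MK and ATP5MJ gave 0.083, -0.010 and -0.056, with overlapping groups, and ATP5MGL, a copy of ATP5MG, had 63 to 78 reads beside 743 to 804 and a log2 fold change of 0.15. ATP5IF1, the inhibitor, was not analysed here.

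The 3 c ring genes held shares that overlapped between the groups. ATP5MC3 supplied 51.9% and 53.3% of their summed normalised reads in non-targeting cells and 51.4% and 52.3% after knockdown. For ATP5MC2 the shares were 34.4% and 33.0% against 34.2% and 34.6%, and for ATP5MC1 13.7% and 13.7% against 14.3% and 13.1%. ATP5MC3 itself had 12462 and 13237 normalised reads with the non-targeting ASO and 12300.2 and 12386 in the knockdown, lower in both knockdown libraries with a log2 fold change of -0.057 (adjusted p = 0.611). ATP5MC1 and ATP5MC2 had overlapping groups and log2 fold changes of -0.039 and -0.0062. These shares are of reads, not of transcripts, since the 3 transcripts differ in length.

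GC content moved with the differences among members. Across the 79 members, the log2 fold change had a Pearson r of -0.195 and a Spearman rho of -0.264 with the GC content of the longest transcript, and across 18925 genes the values were -0.194 and -0.246. These are descriptions across genes measured in the same 4 libraries, which are not independent replicates. The 18 tested members with a GC content of at least 55% had a median of -0.082, beside -0.080 for all genes that rich, and the 28 members under 45% had a median of 0.021, beside 0.026. The libraries of each group differed in it. Measured from the non-targeting mean, knockdown library 2 had an r of -0.329 with GC content across members and knockdown library 1 had 0.056. Non-targeting libraries 1 and 2 had 0.298 and -0.298, which are mirror images because both are measured from their own mean. The correction given above takes from each library a trend fitted over all genes, so a rise of most GC-rich genes is built into it. Of the 11 members with a GC content of at least 55% and a negative log2 fold change, 10 had values nearer to 0 or positive after that correction. Among them NDUFB11 (GC content 60.0%) went from -0.14 to -0.11 and CYC1 (64.5%) from -0.10 to 0.0041. The exception was COX8A (58.6%), which went from -0.16 to -0.21. The median of all members went to -0.031.

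**Figure D5:**
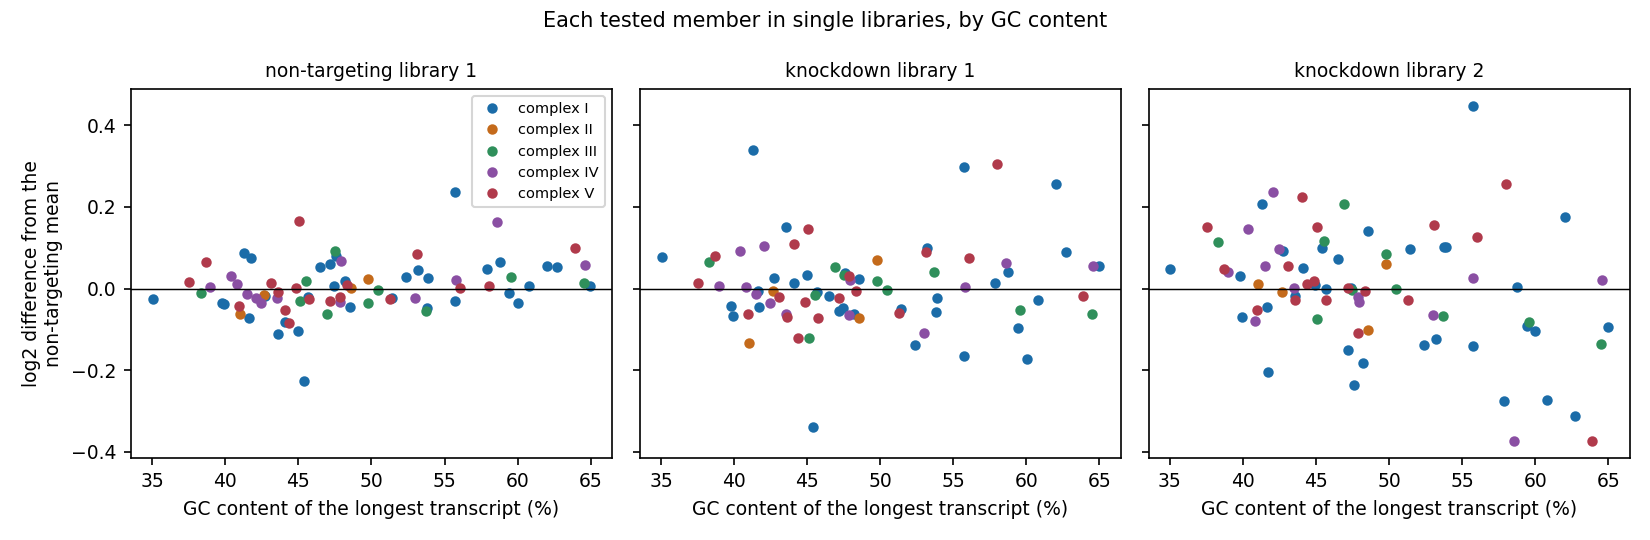
Log2 difference of 78 of the 79 tested members from the non-targeting mean (vertical axis) against the GC content of its longest transcript (percent), for non-targeting library 1 and knockdown libraries 1 and 2, coloured by complex. Members of high GC content lie low in knockdown library 2, with an r of -0.329, and show no such slope in knockdown library 1, with an r of 0.056.

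Some promoters of these genes hold motifs that the choice by symbol did not use. Windows around the transcription start, lying mostly upstream of it, were taken from RefSeq on GRCh38.p14, and 71 of the 91 members had one, out of 27305. Nuclear respiratory factor 1 (NRF1) and the ETS factor GABP are known activators of respiratory genes. The NRF1 motif (GCGCA, any base, GCGC), searched like the others on both strands, was found in 17 member promoters (23.9%) and in 6.28% of all promoters. CCGGAAG, the core bound by ETS factors, was found in 20 (28.2%) beside 10.7%, and AAGATGGCG, bound by YY1, in 8 (11.3%) beside 1.85%. At least 1 of these motifs was present in 38 member promoters (53.5%), beside 17% of all. The set of all promoters was not matched to the members in GC content or expression level. The CCAAT box, at 35.2% beside 35.7%, and TATAAA, at 9.86% beside 12%, were about as frequent as elsewhere. The upstream part of the NDUFB7 promoter (chr19:14572067-14572166, minus strand, 100 bases ending at the start) is shown because, among members with values, it alone held a whole motif in that stretch and no annotated exon, and the ETS core is in capitals.
NDUFB7: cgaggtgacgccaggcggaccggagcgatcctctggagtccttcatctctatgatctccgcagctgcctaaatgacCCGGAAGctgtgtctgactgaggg
NDUFB7, a subunit of the complex I membrane arm, had 3265 and 3235 normalised reads in non-targeting and 3378 and 3043 in knockdown cells, overlapping groups and a log2 fold change of -0.020. The 34 tested members with any of the NRF1, ETS and YY1 motifs had a median log2 fold change of -0.0091, and the 28 without had -0.0092. A match of letters describes the sequence and does not show binding.

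Other genes of oxidative metabolism seldom passed the test either. These lists were chosen with earlier results known. Over all genes tested, limma called 4.25%, and 17.2% had an unadjusted p under 0.05. Of 58 factors that assemble the complexes, 56 were tested and 0 passed in either direction by limma, edgeR or DESeq2, with 1 at an unadjusted p under 0.05 and a median log2 fold change of 0.014. COX11, which delivers copper to complex IV, had the smallest p, with 1071 and 1143 normalised reads in non-targeting cells against 1279 and 1201 after knockdown and a log2 fold change of 0.16 (adjusted p = 0.234). SDHAF4 and TMEM70, which act in the assembly of complexes II and V, were lower in both knockdown libraries, at -0.18 and -0.13 (adjusted p = 0.354 and 0.303). Of 19 genes of mobile electron carriers and coenzyme Q synthesis, 0 passed by any of these tools, 1 had an unadjusted p under 0.05, and the median was -0.044. Their smallest p-values belonged to GPD2, COQ6 and COQ4, at -0.14, -0.15 and -0.13.

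Of 24 genes of the tricarboxylic acid cycle and the pyruvate dehydrogenase complex, limma called 1 higher and 0 lower, with a median of 0.011. Over all genes limma called 0.851% higher and 3.4% lower, and edgeR and DESeq2 called 0 of the 24. At an unadjusted p under 0.05 by limma, 2 were higher and 2 lower, beside 6.17% and 11% of all genes. PDK4, a kinase that switches pyruvate dehydrogenase off, had only 13.4 and 25.4 normalised reads with the non-targeting ASO and 43.2 and 43.3 in the knockdown. Its log2 fold change was 1.18 ± 0.32 (SE, adjusted p = 0.0351) on the log2(value + 1) scale; edgeR did not call it (adjusted p = 0.0509) and DESeq2 gave it no adjusted p. Without non-targeting library 1 the log2 fold change was 0.74 (adjusted p = 0.402), and the call was also lost without either knockdown library (adjusted p = 0.0519 and 0.0520). OGDH and IDH3G, which act in the oxidative steps of the cycle, were lower in both knockdown libraries by -0.17 and -0.20 on the log2 scale, short of the threshold (adjusted p = 0.0525 and 0.0686). Among 20 regulators of respiratory genes, 0 passed by limma, edgeR or DESeq2, 2 had an unadjusted p under 0.05, and the median was -0.040. PPARGC1A, the coactivator PGC-1 alpha, had 262 and 266 normalised reads in non-targeting and 329 and 314 in knockdown cells. It was higher in both knockdown libraries, with a log2 fold change of 0.28 (adjusted p = 0.173), while HIF1A and HCFC1 gave -0.13 and -0.11 (adjusted p = 0.246 and 0.362).

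The partner subunits from the mitochondrial genome stood somewhat higher in the knockdown. Their 13 mRNAs summed to 481855 and 463674 normalised reads in non-targeting cells and 502191 and 531943 after knockdown. The ratio of the members' sum to this sum was 0.784 and 0.825 in non-targeting cells and 0.741 and 0.709 after knockdown, so that the groups did not overlap. Of the 13, 12 had positive log2 fold changes with a median of 0.12, and 2 passed the test as higher, beside 0.851% of all genes: MT-CO3 at 0.21 and MT-ND6 at 0.31 (adjusted p = 0.0154 and 0.0299). edgeR called 5 of them higher, beside 0.82% of all genes, and DESeq2 called 2, beside 0.345%. Corrected for GC content and length, the 13 had a median of 0.0088, with 8 positive and 5 negative values and the lowest, -0.23, in MT-ATP8. MT-CO3 then came to 0.10 and MT-ND6 to 0.16, neither past the test (adjusted p = 0.206 and 0.300). MT-ND6 was 0.10 without knockdown library 2 (adjusted p = 0.364). MT-CO3 lost its call without non-targeting library 1 (adjusted p = 0.118), non-targeting library 2 (0.215) or knockdown library 2 (0.0520).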

How the data were processed

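The authors deposited 1 table of 27106 genes by 4 libraries, whose values are a signal: gene counts divided by a library size factor. Reads were aligned with STAR 2.5.1b to GRCh38 and handled with DESeq2, per the submitters' processing notes. Not given in the sources used here are the counter, the annotation release and the use of strand. In each column every value was a whole multiple of 1 step (100% within 0.00045 of a whole read), so the deposited values give back whole reads. The deposited table holds only genes with at least 2 reads in knockdown library 1, while 2092 to 2375 of its genes had fewer in each other library, so a gene absent from that library was not analysed. Total reads per library were 50855150 and 51851314 (non-targeting) and 48558537 and 41435922 (knockdown).

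Symbols were found for 26579 gene identifiers in the name table and GENCODE 29 models for 26077. Genes with a mean of at least 10 were tested with limma 3.58.1 on log2(value + 1), computed here from the deposited signal, with empirical Bayes and a mean-variance trend, and p-values were adjusted over all 19398 genes by the Benjamini-Hochberg method at 0.05. Fold changes are on that log2 scale and understate those of low genes. The median SE over members was 0.060. edgeR 4.0.16 (quasi-likelihood, biological coefficient of variation 4.47%) and DESeq2 1.42.0 were run on the recovered reads. The fit was tested on simulated data. Other alternatives were scalings, pseudocounts, low-value filters, leaving out each library, and a correction for GC content and length by splines with 5 degrees of freedom on 18925 genes (97.6%). Leaving out members with shared exons was chosen after seeing the data. Libraries of a group differed beyond sampling noise (chi-square per degree of freedom of 4.94 and 5.49).

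Levels per kilobase use the principal GENCODE transcript. The members and gene lists were chosen with earlier results of these data known. Genes named were the target, every called member, the 2 highest and 2 lowest fold changes and the highest and lowest levels of each complex, paralogues and tissue forms, and up to 3 genes with the smallest p of each other list. Other members were named after their values were seen, and 1 member's own values are not reported here.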

Additional observations from a re-analysis of the deposited data

How the results depend on the processing

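The counts of called members, 1 higher and 0 lower, depended on the processing, as did the signs of small values. Members called higher numbered 2 with equal totals (ATP5MF and COX6C), 0 without a mean-variance trend, 0 with shared-exon members left out (an alternative chosen after seeing the data) and 0 to 2 with 1 library left out; members called lower numbered 0 to 4 with 1 library left out, 2 on leaving out non-targeting library 2 and 4 on leaving out knockdown library 1. Genes called lower in the whole table numbered 293 with equal totals, 334 with quantile normalisation, 380 with DESeq2 and 0 without the trend, and 334 (without non-targeting library 1) to 960.0 (without knockdown library 1) with 1 library left out. Genes called higher numbered 291 with equal medians, 67 with DESeq2 and 0 without the trend, and 87 (without non-targeting library 1) to 309 (without knockdown library 2), with 90 without non-targeting library 2. Leaving out shared-exon members removes ATP5MF, the only called member, so that count of 0 was fixed beforehand. The cause of the other changes was not tested. The median log2 fold change was 0.0029 for all members, -0.0065 for complex I and 0.016 for complex III with TMM scaling, 0.0026, -0.0023 and 0.015 with edgeR, and 0.0019, -0.0032 and 0.014 with DESeq2. With equal totals it was 0.051 for all members and 0.041, 0.023, 0.063, 0.072 and 0.050 for complexes I to V, and with quantile normalisation 0.039 and 0.024, 0.0057, 0.041, 0.041 and 0.046 in the same order. Equal medians gave 0.010 for all members, 0.0010 for complex I, 0.023 for complex III, 0.032 for complex IV and 0.0099 for complex V. The GC and length correction gave -0.031 for all members, -0.040 for complex I, -0.074 for complex II and -0.032 for complex IV. For complex I it was -0.0095 without a filter on low values and -0.020 with a mean of at least 50. With 1 library left out it ran from -0.020 to 0.0016 for all members, -0.043 to -0.0089 for complex I, -0.054 to 0.0042 for complex II, -0.0022 to 0.017 for complex III, -0.0075 to 0.020 for complex IV and -0.013 to 0.014 for complex V.

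Of the 79 members, 22 changed sign under another scaling, 16 under the GC and length correction and 40 with 1 library left out, 50 in all, and none of the 50 was called in the main fit. The genes picked by the naming rule changed sign as follows. With equal totals the log2 fold change was 0.014 for ATP5F1B, 0.019 for ATP5MC1, 0.051 for ATP5MC2, 0.015 for COX4I1, 0.018 for COX6A1, 0.026 for COX7A2L, 0.053 for NDUFB9 and 0.050 for SDHC. With quantile normalisation it was 0.013 for ATP5F1B, 0.0071 for ATP5MC1, 0.047 for ATP5MC2, 0.00084 for ATP5MC3, 0.024 for COX4I1, 0.0079 for COX7A2L, 0.051 for NDUFB9 and 0.039 for SDHC. ATP5MC2, NDUFB9 and SDHC gave 0.0033, 0.0052 and 0.0025 with TMM scaling, 0.011, 0.013 and 0.010 with equal medians, 0.0033, 0.0051 and 0.0025 with edgeR and 0.0026, 0.0043 and 0.0017 with DESeq2. The GC and length correction gave 0.0035 for ATP5MC2, -0.025 for COX6B1, -0.031 for COX7A2, 0.0041 for CYC1 and 0.00080 for HCFC1. With 1 library left out the values ran for ATP5MC1 from -0.11 to 0.032, ATP5MC2 from -0.014 to 0.0016, ATP5MGL from -0.018 to 0.32, COX6A1 from -0.081 to 0.0033, COX6B1 from -0.0060 to 0.036, COX7A2 from -0.036 to 0.096, COX7A2L from -0.063 to 0.0013, COX8A from -0.37 to 0.063, NDUFA4L2 from -0.020 to 0.095, NDUFA9 from -0.046 to 0.18, NDUFB9 from -0.025 to 0.016, SDHC from -0.022 to 0.0077, SDHD from -0.13 to 0.010 and SGO1 from -0.0018 to 0.071. Of the other members named, ATP5F1A, ATP5F1C, ATP5MJ, ATP5MK, ATP5PD, COX5A, NDUFB5, NDUFB7, UQCR11 and UQCRQ turned positive under a scaling, at 0.0069, 0.0081, 0.0013, 0.047, 0.049, 0.051, 0.051, 0.037, 0.044 and 0.055. The GC and length correction gave -0.0030 for ATP5PB, -0.011 for COX7B, -0.045 for COX7C, -0.041 for NDUFS4, -0.039 for NDUFS5, -0.077 for UQCR10 and 0.018 for UQCRC1. Only with 1 library left out did ATP5F1E, NDUFAB1, NDUFS8 and UQCRC2 change sign, reaching -0.0028, 0.039, 0.015 and -0.017. A group left with 1 library takes its spread from the other group.

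No paired analysis was possible because the non-targeting columns carry the replicate numbers r1 and r2 and the coded columns r2 and r3, so the groups share 1 number and the labels' numbers cannot be tied to the coded columns. With 2 libraries a group and a median SE of 0.060 over members, small differences can miss the threshold. ATP5MF passed at a log2 fold change of 0.28, and COX6C, at 0.17, did not. Members of low level, such as NDUFA7, have wide intervals.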
